A study of Mus musculus with 4 samples.

Results

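Neuregulins and the ErbB receptors that read them were followed as 7 genes: the ligand genes Nrg1, Nrg2 and Nrg3 and the receptor genes Egfr, Erbb2, Erbb3 and Erbb4. They were chosen by symbol among the 32285 genes of the files, and each symbol matched 1 mouse gene identifier. Neuregulins are growth factors with an EGF-like domain, made mostly as membrane proteins that proteases cut before they signal. ErbB3 and ErbB4 bind them, ErbB2 binds no known ligand and acts as a partner in dimers, and EGFR binds EGF, TGF-alpha and related ligands. ErbB4 is best known in interneurons of the cortex, whereas ErbB2 and ErbB3 are known for signalling in Schwann cells and oligodendrocytes.

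The study put hypothalamus-type stem cells, grown from human pluripotent cells, into the hypothalamus of mice aged about 18 months, and profiled single nuclei of the frozen whole tissue. Of the 4 deposited samples, 2 are labelled control and 2 transplanted; the sources used here do not give strain, sex or the number of animals per sample. Each control-labelled matrix shared its nuclei with a transplanted-labelled one: 3997 of 4008 barcodes of the larger control matrix, called library A here, and 2144 of 2150 of the smaller one, library B, recurred under the transplanted label, whereas any other pair of matrices shared 4. Whole-matrix totals of the members were likewise close between the labels, with 14649 and 14672 UMIs (unique molecular identifiers, 1 per captured RNA molecule) of Nrg1 and 10653 and 10761 of Erbb4 in library A. Such files allow no estimate of what transplantation did, so the control-labelled matrices were used and n is 2 libraries throughout. Which label is right cannot be told, so the nuclei described below may come from control or from transplanted mice. Nothing in the labels says that the libraries came from separate animals, so no p-value measures variation between animals. Unless stated, the fits hold a term for the library. Their p-values are set against the spread left after it, which is estimated with information shared across genes and may be technical.

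Library A held 8779880 UMIs in 4008 nuclei (median 1813) and library B 4924563 in 2150 (median 2049). Nuclei were clustered without the 7 members and without the other ErbB pathway genes, and clusters were named from marker genes. The classes were 4165 neuron-like, 654 oligodendrocyte-like, 504 astrocyte-like, 207 oligodendrocyte-precursor-like, 158 tanycyte-like and 113 microglia-like nuclei, written below without "-like". Every listed marker of 5 classes was highest in its own class, and for tanycytes 10 of 13 were, the exceptions being Vcan, Vim and Adcyap1r1. The same lists had named the clusters, so this is no independent check of the names. Left out of the classes were 167 nuclei of a neuron cluster with hemoglobin transcript Hbb-bs as its leading gene, 160 nuclei of a cluster that carried myelin and neuron RNA together, and 30 doublets. Levels are UMIs scaled to a total of 1000000 per class and library (CPM). Since 3' counts of nuclear RNA also depend on gene length and structure, levels were compared between classes for each gene and never between genes.

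Nrg1, which encodes the best-studied neuregulin, was a neuronal transcript. It reached 1885 and 1892 CPM in neurons (library A, then library B, here and below). In oligodendrocyte precursors it stood at 180 and 122 CPM, and in tanycytes at 124 and 129 CPM. Lower levels were counted in microglia (149 and 30.7 CPM), astrocytes (55.6 and 28.4 CPM) and oligodendrocytes (33.1 and 41.5 CPM). Neurons lay above every glial class in both libraries; precursors and tanycytes lay above astrocytes and oligodendrocytes, and microglia overlapped all of these glia. Some glial levels rest on a few nuclei. Tanycytes of library B had 7 UMIs in 2 of 44 nuclei, and microglia of library A 9 in 3 of 66. In astrocytes of library A, 1 nucleus held 10 of 14 UMIs. Counts were more spread in precursors of library A (28 UMIs in 24 of 135 nuclei) and in oligodendrocytes (9 UMIs in 9 nuclei of each library). Against the mean of the other classes, neurons were higher by 4.68 on the log2 scale (standard error 0.21; edgeR quasi-likelihood test, adjusted p = 3.57e-107), and against the next class, precursors, by 3.60 (standard error 0.34; edgeR adjusted p = 2.95e-25). Below neurons, no neighbours in the order differed past the threshold: the edgeR adjusted p was 0.562 for precursors against tanycytes, 0.742 for tanycytes against microglia, 0.508 for microglia against astrocytes and 0.871 for astrocytes against oligodendrocytes. Further apart in the order, precursors exceeded astrocytes by 1.83 (log2, standard error 0.57; edgeR adjusted p = 0.00603) and oligodendrocytes by 2.03 (standard error 0.57; edgeR adjusted p = 0.00171), while tanycytes did not differ past the threshold from astrocytes (edgeR adjusted p = 0.179) or oligodendrocytes (0.0702).

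The precursor level of Nrg1 turned on a few nuclei. With doublets kept, 1 nucleus with 47 UMIs of Nrg1 joined the precursors of library A and 3 called doublets with 36 joined those of library B, and the level became 466 and 424 CPM. Precursors then exceeded tanycytes by 2.09 (log2; edgeR adjusted p = 7.15e-05) and microglia by 2.53 (edgeR adjusted p = 7.56e-05) and stood 1.91 above the mean of the other classes (edgeR adjusted p = 1.50e-08), and neurons exceeded precursors by 2.02.

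**Figure D1:**
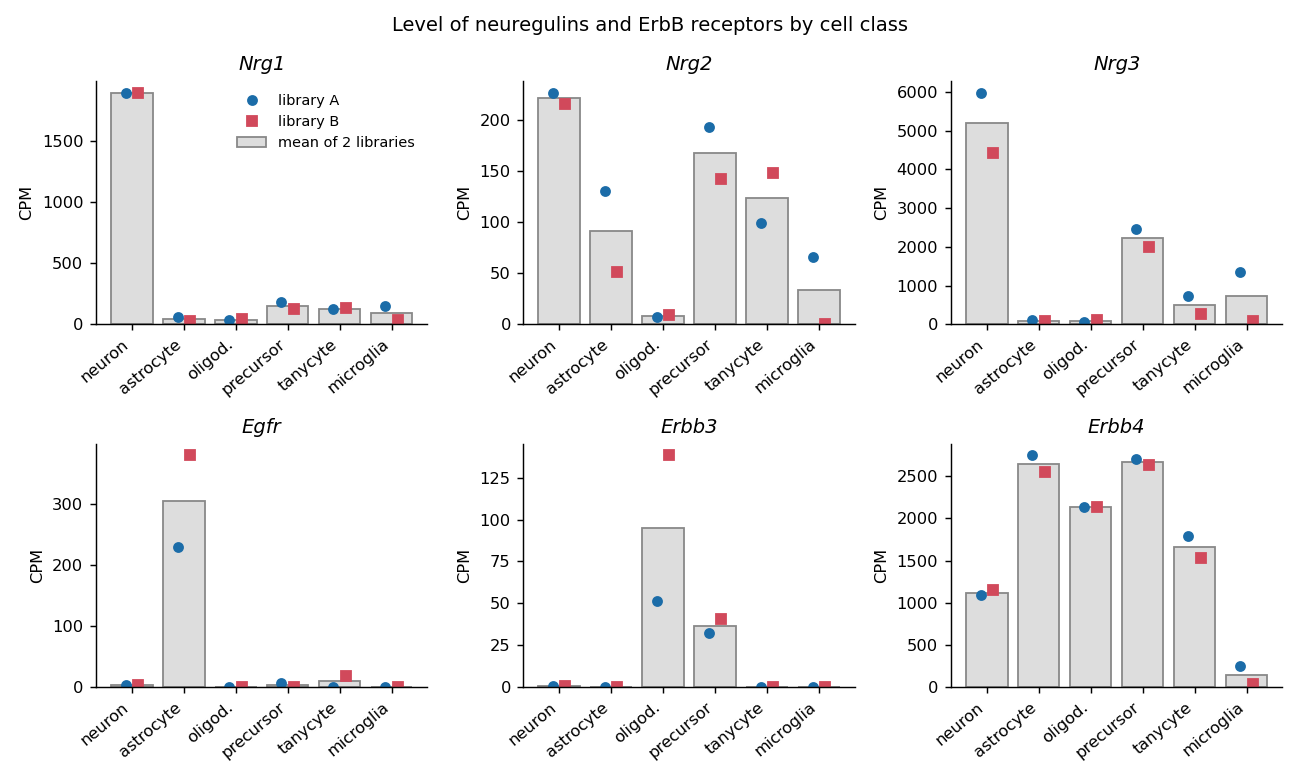
Level (CPM, linear axes from 0) of 6 members in the 6 cell classes; circles are library A, squares library B and bars their mean. Nrg1 and Nrg3 are highest in neurons, Egfr in astrocytes at 230 and 380 CPM, Erbb3 in oligodendrocytes and Erbb4 is low in microglia; Erbb2, at 0 in every class, is not drawn ("oligod." is oligodendrocyte, "precursor" the oligodendrocyte precursor).

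Nrg2, a neuregulin with the same receptors, was spread more evenly. Neurons held 227 and 216 CPM, precursors 193 and 143 CPM, and tanycytes 99.3 and 148 CPM. Astrocytes of library A held 131 CPM and those of library B 51.1 CPM, microglia 66.3 and 0 CPM, and oligodendrocytes 7.36 and 9.23 CPM. Oligodendrocytes were thus the low class, with 2 UMIs in each library. Neurons exceeded oligodendrocytes by 4.70 (log2, standard error 0.45; edgeR adjusted p = 9.23e-25), whereas the difference between neurons and precursors was 0.36 (standard error 0.26; edgeR adjusted p = 0.327). Tanycytes and astrocytes followed with adjacent differences of 0.84 (precursors minus tanycytes, edgeR adjusted p = 0.179) and 0.01 (astrocytes minus tanycytes, edgeR adjusted p = 1).

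Nrg3, a neural neuregulin that binds ErbB4, was high in neurons and also in oligodendrocyte precursors. Neurons held 5987 and 4434 CPM, and precursors 2470 and 1985 CPM. In mature oligodendrocytes the level was 69.9 and 111 CPM, and in astrocytes 99.2 and 73.8 CPM. Both precursor values lay above every value of these mature glia. Precursors exceeded oligodendrocytes by 4.63 (log2, standard error 0.44; edgeR adjusted p = 3.79e-24) and astrocytes by 4.73 (standard error 0.45; edgeR adjusted p = 5.38e-24). Neurons exceeded precursors by 1.21 (standard error 0.32; edgeR adjusted p = 0.000929), but not without the replicate block, that is, without a term for the library (edgeR adjusted p = 0.207), nor with DESeq2 (adjusted p = 0.302).

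Nrg3 was detected widely among precursors: 121 of 135 nuclei of library A (89.6%) and 58 of 72 of library B (80.6%) had at least 1 UMI. Among oligodendrocytes, the shares were 4.89% and 4.55%. Median depth was 1033 and 1196 UMIs in precursors against 667.5 and 686.5 in oligodendrocytes. With every nucleus thinned to 500 UMIs, the precursor shares were 73.3% and 55.6% and the oligodendrocyte shares 3.53% and 3.15%. Microglia and tanycytes looked different. In microglia of library A, 82 UMIs of Nrg3 came from 9 of 66 nuclei, with 67.1% of them in 3 nuclei. Those 3 nuclei had a median of 2735 UMIs against 667.5 for the class, and held 237 of the 451 UMIs of 7 neuron markers counted in it. In library B, microglia held 3 UMIs of Nrg3. In tanycytes of library A, 3 of 114 nuclei held 76.4% of 89 UMIs of Nrg3, and in library B 2 of 44 nuclei held all 14.

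The 7 neuron markers (Rbfox3, Snap25, Syt1, Stmn2, Snhg11, Celf4 and Meg3) gave a measure of neuron RNA in glia. Their summed level, as a share of that in neurons, was 4.67% and 2.91% in astrocytes, 3.57% and 3.78% in oligodendrocytes and 7.04% and 6.11% in precursors. It was 24.5% and 20.1% in tanycytes and 27.1% and 4.35% in microglia. Single markers reached 21.4% and 32.1% in astrocytes, 35.8% and 37.9% in precursors and 51.0% and 35.5% in tanycytes. Nrg1 stood at 9.56% and 6.46% of its neuron level in precursors, next to that measure, and below it in every other glial class. Nrg3 in precursors, at 41.3% and 44.8% of the neuron level, stood above it, as did Nrg2 in precursors (85.0% and 66.1%), in astrocytes (57.7% and 23.7%) and in tanycytes (43.7% and 68.6%). Nrg2 in astrocytes of library B and in tanycytes of library A nevertheless lay below the highest single marker there. The part that neuron RNA had in the glial levels of the neuregulins was not tested. A clustering at resolution 0.6 moved 16 more nuclei into the astrocytes, 3 of them neurons and 13 unnamed, and there Nrg1 in astrocytes went from 1.82 below to 0.77 above the mean of the others on the log2 scale (edgeR adjusted p = 0.000529 and 0.287).

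**Figure D2:**
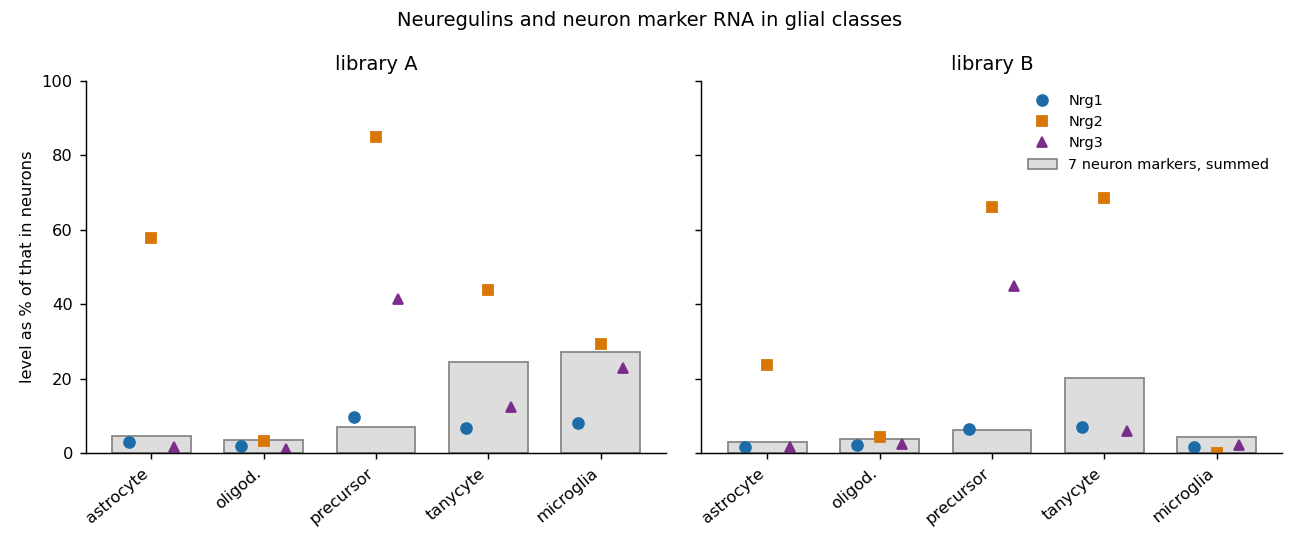
Level of Nrg1, Nrg2 and Nrg3 in 5 glial classes as a percent of the level in neurons (symbols), beside the summed level of 7 neuron markers on the same scale (grey bars), for libraries A and B. Nrg3 in precursors (41.3% and 44.8%) and Nrg2 in precursors lie well above the bars, whereas Nrg1 lies near or below them.

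Erbb4, the receptor gene with the most UMIs here, was present in 5 of the 6 classes. It was highest in precursors (2708 and 2637 CPM) and astrocytes (2750 and 2547 CPM). Oligodendrocytes held 2141 and 2142 CPM, tanycytes 1787 and 1535 CPM, and neurons 1086 and 1149 CPM. Microglia were the exception at 249 and 30.7 CPM, from 15 UMIs in 6 of 66 nuclei and 1 UMI in 47 nuclei. The neuron values lay below those of astrocytes, oligodendrocytes, precursors and tanycytes in both libraries, and the microglial values lay below all others. Neurons exceeded microglia by 3.18 (log2, standard error 0.53; edgeR adjusted p = 1.69e-08).

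Neurons held less Erbb4 in CPM than astrocytes by 1.26 (log2, standard error 0.31; edgeR adjusted p = 0.000115), than oligodendrocytes by 0.999 (standard error 0.30; edgeR adjusted p = 0.00248) and than precursors by 1.28 (standard error 0.31; edgeR adjusted p = 0.000257). Without the replicate block these did not pass, with edgeR adjusted p-values of 0.0551, 0.123 and 0.0864. Between neighbours, precursors and astrocytes (edgeR adjusted p = 1), astrocytes and oligodendrocytes (0.563), oligodendrocytes and tanycytes (0.134) and tanycytes and neurons (0.434) did not differ past the threshold, whereas astrocytes and precursors exceeded tanycytes (0.0370 and 0.0319), though not with total-count scaling (0.119 and 0.116) or without the replicate block (0.318 and 0.288). In nuclei, 83.2% and 79.1% of astrocytes and 67.4% and 69.9% of oligodendrocytes had a UMI of Erbb4. Among neurons 44.9% and 52.6% did, although neurons had the higher depth (median 2270 and 2653 UMIs). Thinned to 500 UMIs per nucleus, the shares were 71.6% and 66.7% in astrocytes, 59.5% and 57.3% in oligodendrocytes and 26.9% and 30.5% in neurons. Per nucleus, without thinning, neurons held more UMIs of Erbb4 (8065 in 2816 nuclei and 4568 in 1349) than astrocytes (693 in 303 and 449 in 201). They also held more than oligodendrocytes (582 in 368 and 464 in 286), but fewer than precursors (421 in 135 and 259 in 72).

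Egfr, the receptor gene of EGF and TGF-alpha, was an astrocyte transcript. Astrocytes held 230 CPM in library A (58 UMIs) and 380 CPM in library B (67 UMIs). Neurons held 2.56 and 3.02 CPM (19 and 12 UMIs). Precursors had 1 UMI in library A and tanycytes 1 in library B, and no UMI was counted in oligodendrocytes or microglia. All other class values thus lay far below the astrocytes. Egfr was higher in astrocytes than in neurons by 6.67 (log2, standard error 0.33; edgeR adjusted p = 5.27e-87). It passed the filter on low counts only through the astrocytes, the class where it is high, so this test is no independent support for the difference. Against oligodendrocytes, taking 3 UMIs per library as the limit that a count of 0 allows, astrocytes were at least 20.9-fold higher in library A and at least 27.5-fold higher in library B; against microglia, with fewer UMIs in all, the bounds were 4.63-fold and 4.13-fold. A UMI of Egfr was found in 47 of 303 astrocytes (15.5%) and 48 of 201 (23.9%), at median depths of 752 and 804 UMIs, and in 0 of 368 and 0 of 286 oligodendrocytes, for which the exact 95% upper limits are 0.997% and 1.28%. Its counts were spread over nuclei, the 3 highest nuclei holding 12.1% and 14.9% of them.

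Erbb3, the kinase-impaired neuregulin receptor, was counted mostly in the oligodendrocyte lineage, with few UMIs. Oligodendrocytes held 51.5 CPM (14 UMIs) in library A and 138 CPM (30 UMIs) in library B, and precursors 32.2 and 40.7 CPM (5 and 4 UMIs). Neurons had 3 and 2 UMIs, and astrocytes, tanycytes and microglia none. Oligodendrocytes were the highest class in both libraries. Relative to neurons the ratio was 128 (exact 95% interval 35.6 to 692) and 275 (69.8 to 2377), an interval for counting error only. Astrocytes were at least 4.33-fold and 8.14-fold lower than oligodendrocytes at a limit of 3 UMIs. The ratio of oligodendrocytes to precursors was 1.60 (0.545 to 5.68) in library A and 3.40 (1.20 to 13.3) in library B. Erbb3 did not pass the filter on low counts; with no filter, the edgeR adjusted p was 9.46e-27 for neurons against oligodendrocytes and 0.329 for oligodendrocytes against precursors.

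Erbb2, the gene of the dimer partner without a ligand of its own, was not detected in any of the 6 classes. A single UMI was counted in the whole of library B and none in library A. At this depth, 3 UMIs would correspond to 0.404 and 0.755 CPM in neurons, 11.0 and 13.8 CPM in oligodendrocytes and 49.7 and 92.1 CPM in microglia, so low levels were not detectable in the small classes. Erbb2 and Erbb3 span 25247 and 22130 bases in the GENCODE M21 annotation, against 1075874 for Erbb4, 1104137 for Nrg3 and 1069479 for Nrg1.

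Across classes, 5 of the 7 members passed the filter on low counts, and Erbb2 and Erbb3 did not. In neurons 3 members were higher than the mean of the other classes (Nrg1, Nrg2 and Nrg3), where 32.2% of 6093 genes were. In astrocytes 2 were higher (Egfr and Erbb4; 20.3% of genes) and 2 lower (Nrg1 and Nrg3; 10.4%). Of these, Egfr entered the fit only through its astrocyte counts. Among oligodendrocytes Erbb4 was higher (20.2% of genes) and all 3 neuregulins lower (16.9%). In precursors Nrg2, Nrg3 and Erbb4 were higher (18.1%). At clustering resolution 0.6 the calls of Nrg1 and Nrg3 in astrocytes and of Erbb4 in oligodendrocytes were lost (edgeR adjusted p = 0.287, 0.639 and 0.0665). With nuclei of at least 800 UMIs the call of Erbb4 in oligodendrocytes was lost too (edgeR adjusted p = 0.303). In that setting the microglia, the class lowest in Erbb4, dropped out, so the mean of the others was not the same. Microglia were lower in Erbb4 (9.75%), and in tanycytes no member passed in either direction, where 17.7% of genes did. In the pairs of classes compared above, the shares of genes that passed in either direction were 50.6% for neurons and astrocytes, 55.0% for neurons and oligodendrocytes, 30.2% for neurons and precursors, 38.3% for neurons and microglia, 28.4% for astrocytes and precursors, 34.0% for oligodendrocytes and precursors, 19.6% for astrocytes and tanycytes and 23.3% for precursors and tanycytes.

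Nrg1 varied most by neuron type among the neuregulins. Of 22 neuron clusters, 13 had at least 20 nuclei in each library and were compared. Nrg1 was highest in neuron cluster 10, a GABAergic cluster led by 9330185C12Rik, Vipr2 and Prok2, at 13713 and 11613 CPM; Vipr2 encodes a receptor for vasoactive intestinal peptide and Prok2 the secreted peptide prokineticin 2, both well known in the suprachiasmatic nucleus. Next came cluster 13 (GABAergic; Meis2, Kcnmb2) at 5221 and 3641 CPM. The lowest levels were in the glutamatergic clusters 15 (Pcsk5, B230323A14Rik, Ebf3) at 762 and 195 CPM, 7 (Lmx1a, Ttc6, Ebf2) at 671 and 661 CPM and 5 (Myo5b, B230323A14Rik, Cpne9) at 818 and 747 CPM. Means of the clusters thus ranged from 479 to 12663 CPM, a 26.5-fold span, with a median of 1698 CPM. The libraries differed at the low end: the span was 20.4-fold in library A, where cluster 7 was lowest, and 59.5-fold in library B, where cluster 15 held 15 UMIs of Nrg1.

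Cluster 10 exceeded the mean of the other neuron clusters in Nrg1 by 3.11 (log2, standard error 0.11; edgeR adjusted p = 7.95e-30), and cluster 13 by 1.51 (standard error 0.12; edgeR adjusted p = 4.82e-14). In these contrasts 7.83% and 3.23% of 7559 genes were higher. Nrg1 was lower than the mean of the others in clusters 15 (by 1.86 on the log2 scale), 7 (by 1.44), 5 (by 1.12) and 4 (by 0.55, a call that did not hold with DESeq2, adjusted p = 0.206, or without the replicate block, edgeR adjusted p = 0.515). Nrg1 itself was not used to build the clusters, though it ranked seventh by fold among the genes of cluster 10, and clusters built from other genes of the same nuclei are not independent of it. Nearly every nucleus of cluster 10 had a UMI of Nrg1: 93.5% in library A and 93.9% in library B, at median depths of 1637 and 1684 UMIs. In oligodendrocytes the shares were 2.45% and 3.15%. With nuclei thinned to 500 UMIs, cluster 10 stood at 86.0% and 84.8% and cluster 15 at 19.7% and 7.14%.

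**Figure D3:**
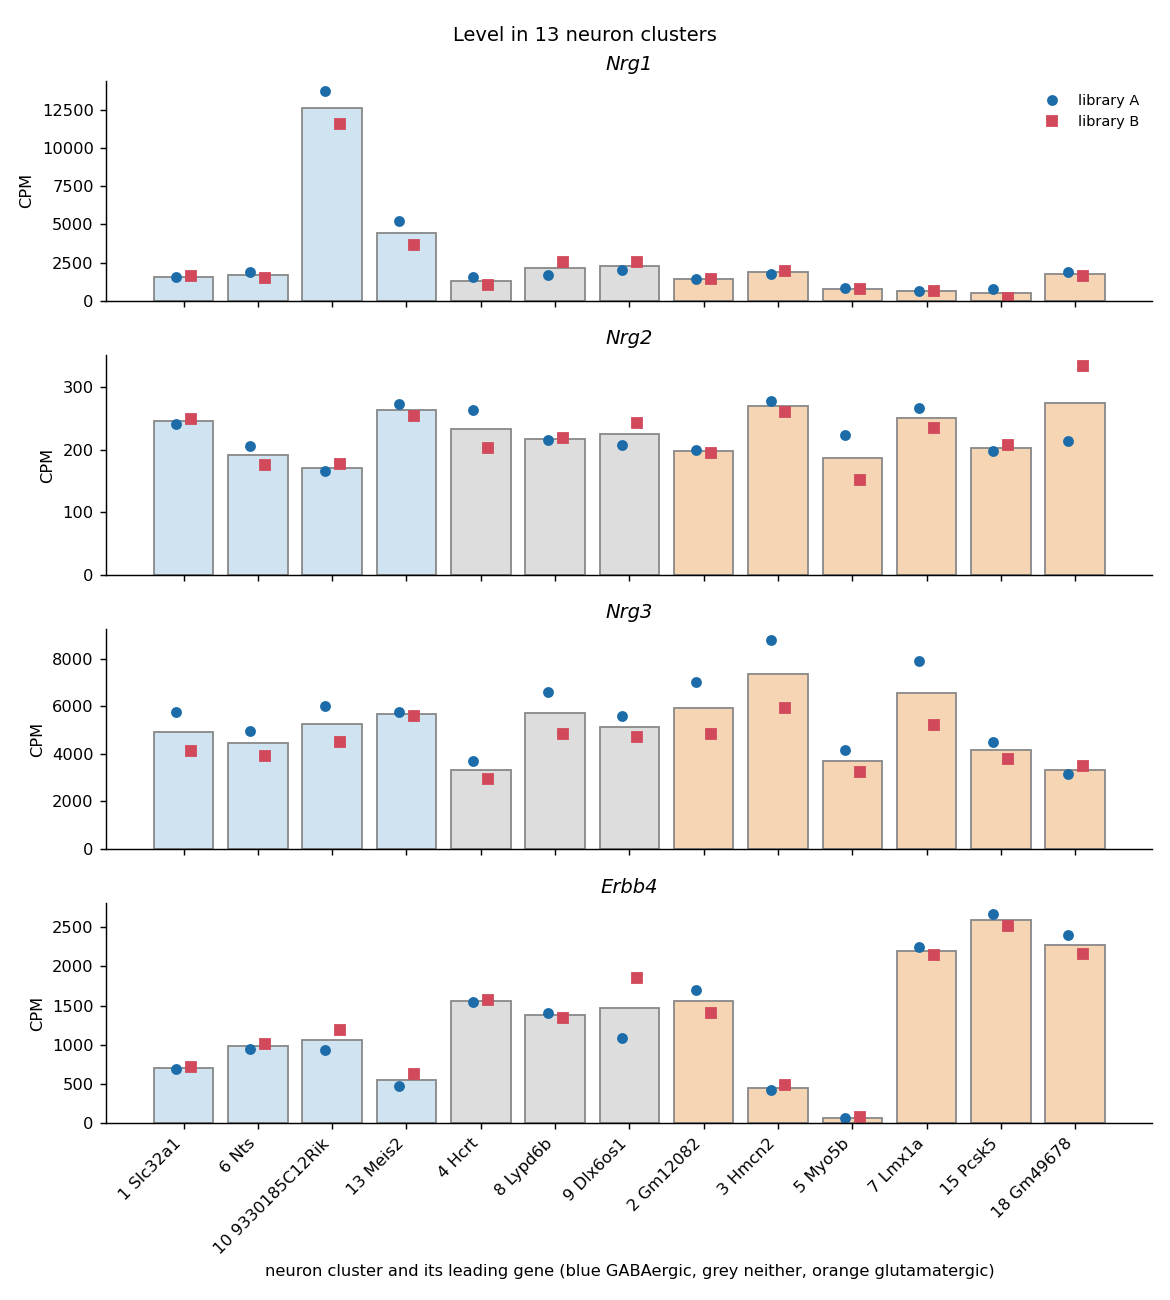
Level (CPM, axes from 0) of Nrg1, Nrg2, Nrg3 and Erbb4 in 13 neuron clusters, each named by its number and its leading gene; circles are library A, squares library B, and bars their mean, coloured by transmitter type. Nrg1 peaks in cluster 10 (13713 and 11613 CPM), Erbb4 nearly vanishes in cluster 5, and Nrg2 varies little.

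Erbb4 also varied among neuron clusters, with its extremes in other clusters. Its lowest level, 66.7 and 78.0 CPM, was in the glutamatergic cluster 5, led by Myo5b, which encodes an unconventional myosin. Its highest levels were in cluster 15 (2671 and 2512 CPM), cluster 18 (glutamatergic; Gm49678, Col18a1, Tafa1; 2400 and 2157 CPM) and cluster 7 (2254 and 2143 CPM). The Hcrt cluster 4, whose leading gene encodes the orexin precursor, held 1541 and 1574 CPM. The cluster means spanned 72.3 to 2592 CPM, 35.8-fold (40.1-fold in library A and 32.2-fold in library B). Erbb4 was 3.98 lower in cluster 5 than in the mean of the others (log2, standard error 0.20; edgeR adjusted p = 1.63e-23) and 1.503 higher in cluster 15 (standard error 0.12; edgeR adjusted p = 6.95e-15). In cluster 5, 8.80% and 9.89% of nuclei had a UMI of Erbb4, and in cluster 15 78.8% and 78.6%.

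In all, Erbb4 was higher in 7 of 13 clusters (2, 4, 7, 8, 9, 15 and 18) and lower in 4 (1, 3, 5 and 13). Over all such contrasts of a cluster with the others, 4.44% of gene tests were higher and 2.23% lower; in cluster 5, 7.96% of genes were lower, and in cluster 15, 2.75% were higher. Without the replicate block, the calls in clusters 1, 8 and 9 were lost (edgeR adjusted p = 0.221, 0.153 and 0.0588). Cluster 9 was also the one whose libraries lay furthest apart in Erbb4, at 1084 and 1847 CPM.

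Nrg3 was high in every neuron cluster and varied 2.22-fold. It was highest in cluster 3 (glutamatergic; Hmcn2, Gpr149, Hydin), at 8800 and 5943 CPM, and in cluster 7, at 7904 and 5232 CPM. The lowest levels were in cluster 18 (3142 and 3497 CPM) and cluster 4 (3687 and 2961 CPM). Library A lay above library B in all of the clusters but cluster 18. Nrg3 was higher than the mean of the others in cluster 3 by 0.65 (log2, standard error 0.09; edgeR adjusted p = 1.89e-07; 9.10% of genes were higher there) and in cluster 7 by 0.50, and lower in clusters 4 (by 0.71), 18 (by 0.63) and 5 (by 0.31); the calls in clusters 4, 5, 7 and 18 did not pass without the replicate block (edgeR adjusted p = 0.161, 0.525, 0.313 and 0.194). Nrg2 lay between 172 and 275 CPM in the cluster means, a 1.60-fold span, and passed in none of the 13 clusters. Its smallest edgeR adjusted p was 0.0822, in cluster 3, at an unadjusted p of 0.0129. Egfr (0 to 8.78 CPM) and Erbb3 (0 to 3.31 CPM) were too rare in neurons to be tested.

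The 4 GABAergic clusters (1, 6, 10 and 13) were compared with the 6 glutamatergic ones (2, 3, 5, 7, 15 and 18). Nrg1 was higher in the GABAergic clusters by 1.71 (log2, standard error 0.09; edgeR adjusted p = 5.94e-22). Of 7559 genes, 4.50% were higher and 4.33% lower in this contrast. The size rested on 2 clusters: without cluster 10 it was 1.10 (edgeR adjusted p = 2.73e-12), and without clusters 10 and 13 it was 0.59 (edgeR adjusted p = 0.000137). The remaining GABAergic clusters 1 and 6, at means of 1578 and 1698 CPM, lay within the range of the glutamatergic clusters, whose means ran from 479 to 1857 CPM.

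For Erbb4 the same contrast gave a GABAergic level lower by 0.26 (log2, standard error 0.08; edgeR adjusted p = 0.0442), and this did not hold. With the members among the clustering genes it was 0.37 higher (edgeR adjusted p = 0.00289), and at clustering resolution 1.5 it was 0.30 higher (edgeR adjusted p = 0.0698). The edgeR adjusted p of Nrg2 was 0.617 (difference -0.12, standard error 0.10) and that of Nrg3 0.955 (difference 0.01, standard error 0.06). At clustering resolution 0.6, however, Nrg3 passed as lower in the GABAergic clusters (difference -0.22; edgeR adjusted p = 0.00598).

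**Figure D4:**
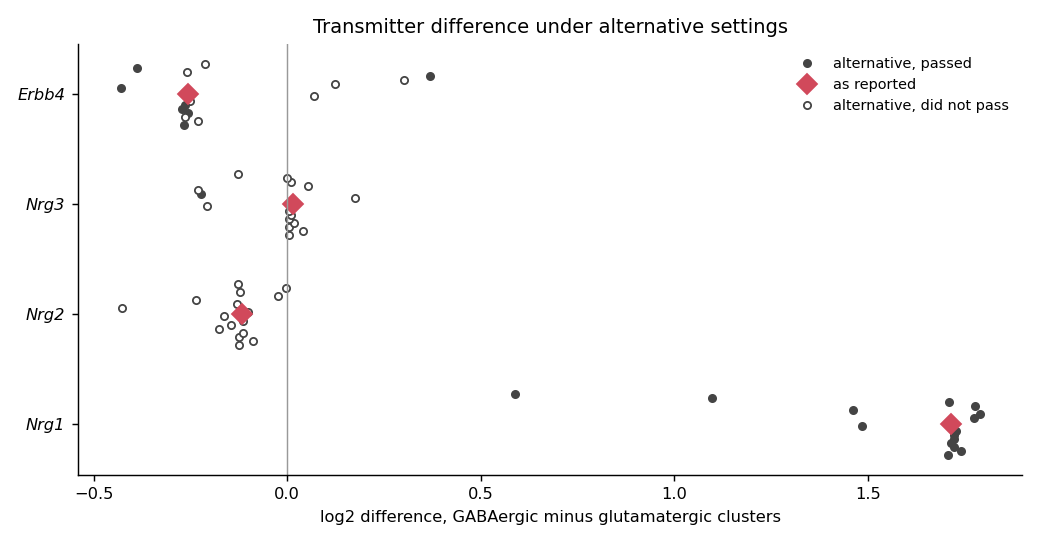
Difference in level (log2, GABAergic minus glutamatergic neuron clusters) of Nrg1, Nrg2, Nrg3 and Erbb4; diamonds are the values in the text, circles the same difference under alternative settings, filled where the adjusted p was under 0.05. Nrg1 is on the right of 0 in all settings drawn, down to 0.59 without clusters 10 and 13, and Erbb4 lies on both sides of 0.

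Small neuron clusters with fewer than 20 nuclei in a library were not tested. In the Sst cluster 14, Nrg1 stood at 2897 and 2637 CPM. The Avp cluster 22, whose leading gene encodes vasopressin, held little Erbb4, at 69.2 and 119 CPM (5 and 8 UMIs), and 484 and 447 CPM of Nrg1. Conversely the Npy cluster 20 held 2254 and 2407 CPM of Erbb4 and 74.6 and 415 CPM of Nrg1. The Pmch cluster 23, of melanin-concentrating hormone neurons by its leading gene, had 3 UMIs of Nrg1 in 19 nuclei and none in 4. The histidine decarboxylase cluster 24 (Hdc) had the most Nrg3 of these small clusters in both libraries, at 9929 CPM in 18 nuclei and 5335 CPM in 3, with 12 and 0 UMIs of Erbb4.

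Ligand and receptor levels were then set side by side over the 13 neuron clusters and 5 glial classes. Across the neuron clusters alone, Pearson's r of log2(CPM + 5) between Nrg1 and Erbb4 was -0.04, and between Nrg3 and Erbb4 0.02; the points share libraries and depth, and these values are descriptions. Clusters 7 and 15 combined low Nrg1 with high Erbb4, cluster 13 the reverse, and cluster 5 was low in both. Among glia, astrocytes, oligodendrocytes and precursors combined high Erbb4 with little Nrg1. Cluster 10, the highest in Nrg1, held 930 and 1194 CPM of Erbb4, near the mean of the clusters (difference 0.11 on the log2 scale, standard error 0.13; edgeR adjusted p = 0.719).

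**Figure D5:**
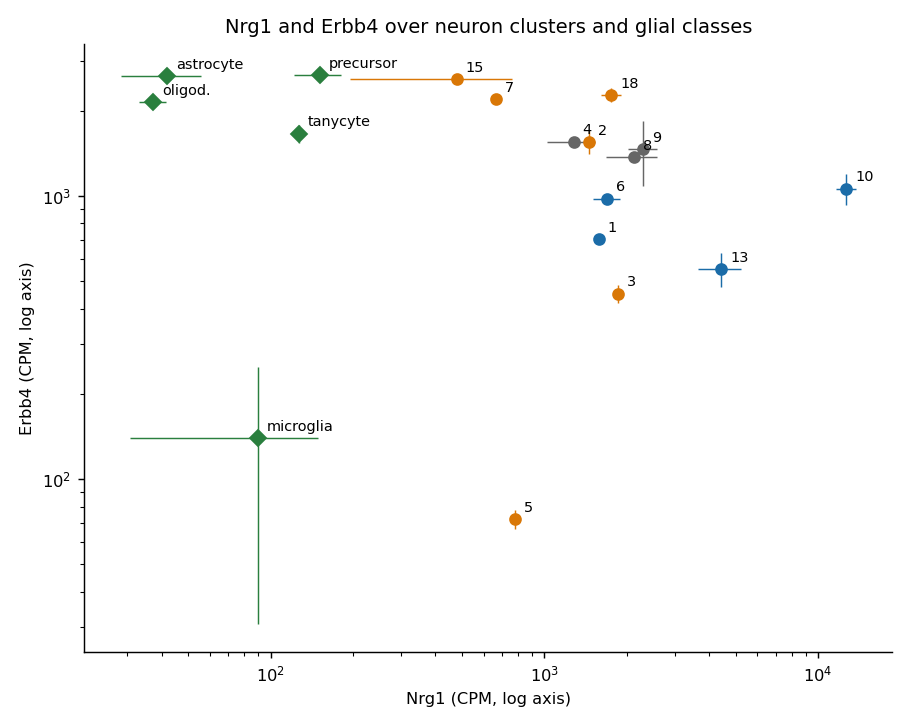
Mean level of Nrg1 against that of Erbb4 (CPM, both axes logarithmic) in 13 neuron clusters (circles with cluster numbers; blue GABAergic, orange glutamatergic, grey neither) and 5 glial classes (green diamonds); bars run from the lower to the higher library. Glia other than microglia sit at the upper left, cluster 10 at the far right and cluster 5 at the bottom.

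The genes whose pattern over these 18 points was most like that of a member were picked by Pearson's r among 8361 genes with at least 200 UMIs. For Nrg1 they included Fam126b and Srpk1 (r of 0.931 and 0.931), for Nrg2 Gucy1a2, Rims2 and Gm26691 (0.973, 0.972 and 0.968), for Erbb4 Tafa5, C130071C03Rik and Tsen34 (0.80 to 0.81). Egfr went with Hdac8, Agt and Etnppl (0.88 to 0.89), of which Agt, the angiotensinogen gene, is one of the astrocyte markers. This list depended on its settings: among genes with at least 50 UMIs it became Gjb6, Cd38 and A330076C08Rik (0.954, 0.935 and 0.935), and with 1 in place of 5 added to the CPM it became Hdac8, Trim41 and Sall2 (0.827, 0.824 and 0.799). Erbb3 went with Sept8, Cercam and Ninj2 (0.94 to 0.95), of which Ninj2 was replaced under both of these settings. For Nrg3 they included Nrg3os (r = 0.996) and Rapgef4 (0.987). Nrg3os lies antisense to Nrg3, and the files do not say whether counting used strand, so reads of the pair cannot be told apart; Nrg3 had 67114 UMIs, Nrg3os 10294 and a further antisense gene, Gm20642, 7453.

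The wider ErbB pathway was followed in 34 further genes, of which 21 passed the filter in the comparison of classes. Oligodendrocytes had 8 of them higher and 3 lower than the mean of the other classes, where 20.2% of all genes were higher and 16.9% lower, with a median log2 difference of 0.46 over the 21 against -0.02 over all genes. Neurons had 4 higher and 6 lower (median -0.27, all genes 0.16), where 32.2% of all genes were higher and 16.2% lower. Astrocytes had 5 higher and 1 lower (20.3% and 10.4% of all genes), and microglia 6 and 3 (13.2% and 9.75%). Precursors had 4 and 2 (18.1% and 3.89%), and tanycytes 5 and 2 (13.5% and 4.23%).

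Among 8 other ligands only Tgfa, which encodes the EGFR ligand TGF-alpha, was tested. It passed as higher than the mean of the other classes in precursors (by 3.94, log2), microglia (by 3.13) and oligodendrocytes (by 2.75), and as lower in astrocytes. Tgfa passed the filter on low counts through classes where it is high, so these tests are no independent support for the differences. The astrocytes, at 0, also lowered the mean that the other classes were set against, which makes those sizes larger. Precursors held 83.6 and 153 CPM of Tgfa, against 0 and 0 CPM in the astrocytes that held Egfr. Among proteases, Adam10, a sheddase, was higher in microglia (580 and 706 CPM; neurons 193 and 131 CPM). Adam19, a protease known to process neuregulins, stood at 92.0 and 106 CPM in oligodendrocytes, 28.3 and 32.2 CPM in neurons and 32.2 and 20.4 CPM in precursors, with no UMI in the other classes. The counts above hold it as higher in neurons and precursors, but 3 UMIs would be 24.8 and 55.5 CPM in tanycytes and 49.7 and 92.1 CPM in microglia, so no difference of neurons or precursors from those classes was detectable at this depth.

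Of 10 adaptors and effectors downstream of the receptors, 9 were tested. Oligodendrocytes had 4 of these higher and 3 lower, where 20.2% of all genes were higher and 16.9% lower. Neurons had 3 higher and 3 lower, where 32.2% and 16.2% of all genes were, so the share of higher ones was near that of all genes. Erbin, which encodes a scaffold that binds ErbB2, stood at 1314 and 1140 CPM in oligodendrocytes and 88.2 and 93.3 CPM in neurons, and was 3.32 above the mean of the other classes (log2, standard error 0.15; edgeR adjusted p = 6.74e-106). Gab1, a docking protein gene, stood at 769 and 1034 CPM in oligodendrocytes, at 348 and 388 CPM in tanycytes and at 7.67 and 7.80 CPM in neurons; it was 3.39 above the mean of the others in oligodendrocytes (standard error 0.16; edgeR adjusted p = 1.43e-100) and 1.53 in tanycytes (standard error 0.27; edgeR adjusted p = 4.00e-07). Pik3r1, the PI3-kinase regulatory subunit, was higher in astrocytes (984 and 652 CPM) and precursors (618 and 468 CPM). Dlg4, the gene of the postsynaptic scaffold PSD-95, was higher in neurons by 1.501 (standard error 0.25; edgeR adjusted p = 1.36e-08). Shc3, a neural adaptor gene, was at 198 and 244 CPM in astrocytes, 219 and 183 CPM in precursors and 73.5 and 117 CPM in neurons, with 0 in oligodendrocytes. It passed as higher than the mean of the other classes in each of the first 3. That mean is lowered by the oligodendrocytes at 0, and the neuron levels lay below those of astrocytes and precursors in both libraries. Grb2, the adaptor linking receptors to Ras, was higher in microglia (249 and 245 CPM).

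Among genes of feedback and turnover, Lrig1, which encodes a negative regulator of ErbB receptors, was at 758 and 800 CPM in astrocytes and at 66.2 and 166 CPM in tanycytes, higher in both, and at 7.81 and 11.1 CPM in neurons. Itch, a ubiquitin ligase gene, was higher in oligodendrocytes (497 and 402 CPM) by 1.67 (log2, standard error 0.18; edgeR adjusted p = 2.74e-19). Nedd4, another ubiquitin ligase gene, was higher in tanycytes (521 and 703 CPM), and Cbl, whose product marks EGFR for degradation, in microglia (133 and 307 CPM). Between GABAergic and glutamatergic clusters, 21 of the 34 genes were tested. In the GABAergic clusters Cblb was 0.49 higher (standard error 0.13, edgeR adjusted p = 0.00654). Adam19 was lower there by 1.13 on the log2 scale (standard error 0.31, edgeR adjusted p = 0.0118). These pathway genes were named as the only ones that passed. With 1 of 21 higher and 1 lower, the shares were near those of all genes, of which 4.50% were higher and 4.33% lower.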

How the data were processed

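Nuclei were isolated from frozen hypothalamus and 3' libraries (version 3.1 chemistry) made, per the labels' protocols. The deposited values are raw UMI counts per gene and barcode, made with Cell Ranger 5.0.1 per the submitters' processing notes, which name the human build GRCh38 although the gene identifiers are of mouse; the mouse build, how barcodes were chosen, and whether introns or strand were used are not given in the sources used here. Coordinates are therefore left out. No deposited nucleus had under 500 UMIs.

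From these, doublets were called per matrix with Scrublet as packaged in scanpy 1.11.5 (5 in library A, 0.125%, too few to trust there, and 25 in library B, 1.16%) and left out. Counts were scaled to 10000 per nucleus, and 3000 variable genes, 40 components, 20 neighbours and Leiden clustering at resolution 1 were used, with another round on neurons. A class needed 2 of its markers among a cluster's 10 leading genes and 3 over 2-fold. This scheme was settled after looking at clusters from earlier versions of it, and the members and lists were chosen with earlier results of these data known. A neuron cluster was GABAergic or glutamatergic where Slc32a1 and Slc17a6 differed at least 3-fold.

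UMIs were summed per library and class (12 sums, 5 residual degrees of freedom, 6093 genes) or neuron cluster (26 sums, 12, 7559 genes) after edgeR's default expression filter and fitted with edgeR 4.0.16 (R 4.3.3; quasi-likelihood test, TMM) with the library as a block, since all classes of a library come from the same tissue. P-values were adjusted over all genes tested (Benjamini-Hochberg, threshold 0.05), and standard errors are the difference over the root of F. They rest on a spread shared across genes and can be small where a gene's own libraries differ. An example is Nrg3 in microglia against the other classes, with a standard error of 0.37 at 1360 and 92.1 CPM. On simulated counts, 30.9% of 2-fold and 86.6% of 4-fold changes were recovered for astrocytes against the other classes (4801 genes), and 97.0% and 100% for GABAergic against glutamatergic clusters (7056 genes). These counts had a common profile for all groups and the same dispersion for every gene. Changes were put only in well-counted genes, and those that failed the filter were left out of the rates. The rates therefore do not describe rare genes such as Egfr and Erbb3. Intervals are exact 95% and cover counting error only; 3 UMIs stood for a count of 0. Named were all members, up to 3 pathway genes per class with the smallest p among those higher, the 3 genes most like each member, and each cluster's 3 leading genes; a few of these genes are not reported here. Alternatives were DESeq2 1.42.0, other scalings, no filter, the transplanted-labelled files, other depths and clusterings, each library left out, and, added after seeing the data, fits without microglia or without neuron clusters 10 and 13. Overlapping genes came from GENCODE M21.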

Additional observations from a re-analysis of the deposited data

How the results depend on the processing

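Of 783 values of gene results that passed, recomputed under alternatives, 748 kept direction and call, 30 lost the call and 5 reversed; of 735 that had not passed, 26 gained a call in the same direction and 3 in the other. Without the replicate block, 14 instead of 22 member results passed between neuron clusters and 1 instead of 2 between GABAergic and glutamatergic clusters. That last count was also 1 with total counts only, DESeq2, doublets kept, resolution 1.5, mixed clusters kept, or without clusters 10 and 13, in each case through the loss of Erbb4. Erbb4 between GABAergic and glutamatergic clusters turned to 0.070 with doublets kept, 0.12 at resolution 0.6, 0.30 at resolution 1.5 and 0.37 with members among the clustering genes, and Nrg3 to -0.22 at resolution 0.6. Between classes, Nrg1 in astrocytes turned to 0.77 at resolution 0.6, through 16 added nuclei, Nrg3 in microglia to -1.15 in thinned nuclei, and Erbb4 in tanycytes to -0.50 without microglia. In Nrg3, astrocytes minus microglia ranged from -3.46 without library B to 0.38 without library A, and oligodendrocytes minus microglia from -3.93 to 0.99. Apart from the added nuclei, the cause was not tested. Erbb4 in neurons passed as lower than the mean of the others without microglia (-0.99) and at 800 or more UMIs (-1.07), where a class had fewer than 20 nuclei in a library and dropped out. Total-count scaling moved the median gene from -0.16 to 0.29 in microglia and from 0.06 to 0.23 in tanycytes. Of the 5801 nuclei with a class, 99.9% kept their class name at resolution 0.6. Nuclei left out of the classes are not in that share, and 13 unnamed ones joined the astrocytes there. Counts of Erbb2 and Erbb3, and of Egfr outside astrocytes, were few or absent, and whether depth accounts for this was not tested.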
